A study of Saccharomyces cerevisiae with 9 samples.

Results

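The RNA exosome is the main 3′-to-5′ RNA-degrading machine of eukaryotic cells. In budding yeast a ring of RNase PH-like proteins (Ski6, also called Rrp41, Rrp42, Rrp43, Rrp45, Rrp46 and Mtr3) is topped by a cap of RNA-binding proteins (Rrp4, Rrp40 and Csl4). The ring and cap have no nuclease activity of their own in yeast and thread RNA towards the exonuclease Dis3, while the nuclear form also carries the exonuclease Rrp6. The complex trims ribosomal RNA, small nucleolar RNA and other precursors in the nucleus, removes cryptic transcripts there, and degrades mRNA in the cytoplasm. The genes described here are the 10 subunit genes RRP4, RRP40, CSL4, SKI6, RRP42, RRP43, RRP45, RRP46, MTR3 and RRP6, which were chosen by standard gene name. No measured value entered that rule, but earlier results of these data were known when the genes were chosen. All 10 were among the 6868 features of the arrays and among the 5645 features with a value on every array. DIS3 was not among the genes chosen and is given below with the exosome cofactors.

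The study asked how phosphorylation of the C-terminal repeat domain (CTD) of Rpb1, the largest subunit of RNA polymerase II, bears on the transcript response of yeast to salt. Wild-type (CTD14), S2A (CTD2A) and S5A (CTD5A) strains were each profiled on 3 arrays, 9 in all, comparing cells at 30 min after addition of 0.7 M NaCl with the unstressed culture of the same strain in rich YPD medium at 30 °C. All 3 strains lack chromosomal RPB1 and live on plasmid-borne RPB1, whose CTD consists of wild-type repeats in CTD14. In S2A and S5A it is a chimera of repeats with serine 2 or serine 5 replaced by alanine, followed by wild-type repeats, so neither serine is lost from the whole domain. Both mutants also differ from CTD14 in the total number of repeats and in the number of wild-type repeats. Effects of repeat number and of the replaced serine cannot be told apart in these arrays. The study reports, without showing data, no difference in salt-responsive expression between control plasmids with unlike numbers of wild-type repeats. These controls carried as many wild-type repeats as CTD14 or more, whereas both mutants carry fewer. They therefore do not cover the number of wild-type repeats in the mutants.

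Values are log2 ratios of salt-treated to unstressed transcript level, so −1 is a halving, and they do not give the level of a transcript in either culture. Array medians lay between −0.00135 and −0.00011, and the standard deviation over features was 1.07 to 1.22 on the wild-type arrays, 1.04 to 1.20 on the S2A arrays and 0.886 to 0.916 on the S5A arrays. The salt-induced genes (GPD1, CTT1, HSP12, GRE2 and STL1) rose in all 3 strains, with strain means from 4.54 to 8.47, which fixes the direction of the ratio. The labels do not say that replicates were separate cultures, so p-values measure the spread between these arrays. The salt-treated sample carried the same dye on all 9 arrays, so a dye effect is removed from differences between strains and stays in each strain's own response. A transcript was called responsive at a limma adjusted p (Benjamini-Hochberg over all 5645 features) below 0.05, and different between strains at or below 0.025. In RNA from whole cultures, a change in all cells and a change in some of them cannot be told apart.

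In wild-type cells 9 of the 10 exosome transcripts fell after NaCl, and RRP40 was the only one with a mean above 0. Reduced transcripts at this threshold made up 38.3% of all features and raised ones 32.3%, and 0 of the 10 exosome transcripts rose. Their median change was −0.73, against −0.062 over all features, and their median on the single arrays was −0.69, −0.97 and −0.70. The depth of the fall ranged from −0.42 for CSL4 to −1.24 for RRP6. The plot of exosome transcripts by array shows this spread.

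**Figure D1:**
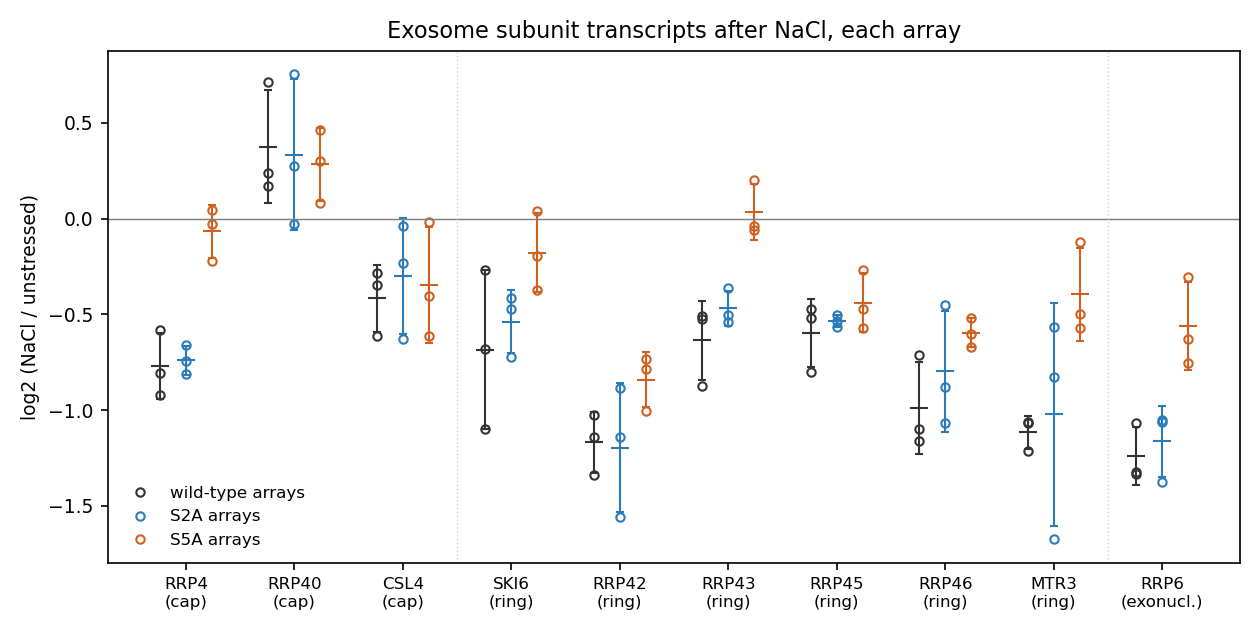
Log2 ratio of salt-treated to unstressed transcript level (vertical axis) for the 10 exosome subunit genes in wild-type, S2A and S5A cells. Circles are single arrays, horizontal marks the mean of 3 arrays and bars 1 SD. RRP40 lies above the other subunits on every array, and the S5A arrays of RRP4, RRP43, MTR3 and RRP6 lie closer to 0 than the wild-type arrays.

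Among the cap genes, RRP4 (YHR069C), which encodes an RNA-binding cap protein, changed by −0.58, −0.92 and −0.81 on the 3 wild-type arrays. The mean was −0.77 ± 0.17 (SD, n = 3; limma adjusted p = 5.58e-05), which is 58.7% of the unstressed level. All 3 arrays were below 0. CSL4 (YNL232W), whose product bridges cap and ring, changed by −0.29, −0.61 and −0.35, with a mean of −0.42 ± 0.17 (SD, n = 3; limma adjusted p = 0.0223). This was the shallowest fall of the 9, and it was not called without wild-type replicate 2 (limma adjusted p = 0.126) or wild-type replicate 3 (0.0569).

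RRP40 (YOL142W), which encodes the third cap protein, stood apart from the other subunits. It changed by 0.24, 0.71 and 0.17 on the wild-type arrays, with a mean of 0.37 ± 0.30 (SD, n = 3; limma adjusted p = 0.0523). All 3 arrays were above 0, and RRP40 was the highest of the 10 exosome transcripts on each of the 9 arrays of the study. Its value exceeded the median of the other 9 by 1.04, 1.74 and 0.89 on the wild-type arrays, by 1.09, 0.72 and 1.26 on the S2A arrays and by 0.58, 0.66 and 0.78 on the S5A arrays. The rise itself sat at the threshold and was not called under 12 of 17 alternative settings, with a highest limma adjusted p of 0.318 and a mean of 0.20 without wild-type replicate 2. It was called after median centring of the arrays (limma adjusted p = 0.0237), after scaling them to one spread (0.0292), with Storey's q-value (0.00945), without S2A replicate 2 (0.0394) and without S2A replicate 3 (0.0295).

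The ring genes fell together in wild-type cells, with 6 of 6 called lower and a median of −0.84. RRP42 (YDL111C) changed by −1.14, −1.02 and −1.34, with a mean of −1.17 ± 0.16 (SD, n = 3; limma adjusted p = 1.85e-05) or 44.5% of the unstressed level. MTR3 (YGR158C) changed by −1.07, −1.21 and −1.06, with a mean of −1.11 ± 0.086 (SD, n = 3; limma adjusted p = 2.72e-04). RRP46 (YGR095C) changed by −1.10, −1.16 and −0.71, with a mean of −0.99 ± 0.24 (SD, n = 3; limma adjusted p = 6.36e-05). These 3 ring transcripts fell to about the same extent, and their array values overlapped. SKI6 (YGR195W) changed by −0.27, −1.10 and −0.68, with a mean of −0.68 ± 0.41 (SD, n = 3; limma adjusted p = 0.00188), the widest spread among the exosome transcripts of this strain. RRP43 (YCR035C) changed by −0.53, −0.87 and −0.51, with a mean of −0.64 ± 0.20 (SD, n = 3; limma adjusted p = 3.20e-04). RRP45 (YDR280W), the ring gene with the shallowest fall, changed by −0.80, −0.52 and −0.47, with a mean of −0.60 ± 0.18 (SD, n = 3; limma adjusted p = 3.54e-04). The values of SKI6, RRP43 and RRP45 overlapped with each other.

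RRP6 (YOR001W) encodes the exonuclease that is specific to the nuclear exosome. It changed by −1.07, −1.33 and −1.32 on the wild-type arrays, with a mean of −1.24 ± 0.15 (SD, n = 3; limma adjusted p = 5.09e-06), which is 42.3% of the unstressed level. This was the lowest mean of the 10, although RRP42 was lower than RRP6 on 2 of the 3 arrays. RRP6 lay below the median of the other 9 subunits on each of the 9 arrays of the study, by 0.18 to 0.84 on the log2 scale.

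In S2A cells 8 of the 10 exosome transcripts fell, where 37.1% of all features did, and 0 rose, where 31.6% did. Their median change was −0.64, against −0.043 over all features. RRP6 changed by −1.38, −1.06 and −1.05, with a mean of −1.16 ± 0.19 (SD, n = 3). RRP42 changed by −1.56, −1.14 and −0.89, with a mean of −1.20 ± 0.34, and MTR3 by −1.68, −0.83 and −0.56, with a mean of −1.02 ± 0.58. The first S2A array was the lowest for each of these 3 transcripts, and it was also the array with the most features without a value (1163). RRP46 changed by −1.07, −0.88 and −0.45, with a mean of −0.80 ± 0.32. RRP4 changed by −0.81, −0.75 and −0.66, with a mean of −0.74 ± 0.075. Both lay below 0 on every S2A array, as did SKI6 (−0.42, −0.72 and −0.47), RRP43 (−0.54, −0.50 and −0.36) and RRP45 (−0.53, −0.57 and −0.50). The call for SKI6 was lost without S2A replicate 2 (limma adjusted p = 0.0602). The 2 transcripts that were not called in S2A were cap genes. CSL4 changed by −0.23, −0.63 and −0.038 (limma adjusted p = 0.0830, and 0.0236 with the replicate number as a block), and RRP40 by 0.27, −0.028 and 0.75 (limma adjusted p = 0.0804). CSL4 was also called lower with Storey's q-value (limma adjusted p = 0.0153) and without S2A replicate 3 (0.0467). On that array 9 of the 10 lay highest within S2A. RRP40 was called higher without S2A replicate 2 (limma adjusted p = 0.0277), after median centring (0.0410), after scaling (0.0412) and with Storey's q-value (0.0148).

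The differences between S2A and wild-type lay between −0.041 for RRP40 and 0.19 for RRP46, with a median of 0.084. The median was 0.0035 without S2A replicate 3, 0.043 without wild-type replicate 2 and 0.13 without wild-type replicate 1. For 0 of the 10 transcripts did all S2A arrays lie above all wild-type arrays, which was so for 6.24% of all features. limma called 0 of the 10 different, as it called 0.0% of all features, with a lowest adjusted p of 0.694 among the exosome transcripts. At an unadjusted p below 0.05 there were 0 exosome transcripts and 479 features. The 95% interval of the difference was −0.28 to 0.34 for RRP4, −0.16 to 0.50 for RRP43, −0.29 to 0.44 for RRP6 and −0.47 to 0.66 for MTR3. Differences within those intervals are not excluded with 3 arrays per strain. The bounds do not give the smallest difference that could be called, and larger ones could also go uncalled.

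In S5A cells RRP42, RRP45, RRP46 and RRP6 were called lower, 4 of 10, where 34.2% of all features were, and 0 of 10 were called higher, where 28.9% were. Under 4 alternative settings 6 or 7 were called. The median change of the 10 was −0.37, against −0.067 over all features. It was −0.070, −0.57 and −0.44 on the single arrays, so the first S5A array was the highest and lay near the median of all its features. On that array 6 of the 10 were below 0, and on the other S5A arrays 9 of the 10.

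RRP4 changed by 0.046, −0.22 and −0.027 on the S5A arrays, with a mean of −0.067 ± 0.14 (SD, n = 3; limma adjusted p = 0.573), or 95.5% of the unstressed level. RRP43 changed by 0.20, −0.060 and −0.041, with a mean of 0.034 ± 0.15 (SD, n = 3; limma adjusted p = 0.792). Values of both genes lay on either side of 0. SKI6 changed by 0.037, −0.19 and −0.37, with a mean of −0.18 ± 0.21 (SD, n = 3; limma adjusted p = 0.312), and MTR3 by −0.12, −0.57 and −0.50, with a mean of −0.40 ± 0.24 (SD, n = 3; limma adjusted p = 0.0769). MTR3 lay below 0 on every S5A array and was called lower under 5 of 17 alternative settings, among them scaling of the arrays to one spread (limma adjusted p = 0.0479) and quantile normalization (0.0253).

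RRP6 changed by −0.30, −0.75 and −0.63 in S5A, with a mean of −0.56 ± 0.23 (SD, n = 3; limma adjusted p = 0.00182), or 67.7% of the unstressed level. RRP42 changed by −1.005, −0.78 and −0.73, with a mean of −0.84 ± 0.14 (SD, n = 3; limma adjusted p = 2.76e-04), and was the lowest exosome transcript on all 3 S5A arrays. RRP46 changed by −0.52, −0.67 and −0.60, with a mean of −0.60 ± 0.075 (SD, n = 3; limma adjusted p = 0.00255). RRP45 changed by −0.27, −0.57 and −0.47, with a mean of −0.44 ± 0.15 (SD, n = 3; limma adjusted p = 0.00328). These 4 stayed called under every alternative setting tried. CSL4 changed by −0.019, −0.61 and −0.40, with a mean of −0.35 ± 0.30 (SD, n = 3; limma adjusted p = 0.0539, and 0.0142 with the replicate number as a block). It was called lower under 8 of 17 alternative settings. Besides the block these were quantile normalization (limma adjusted p = 0.0190), scaling (0.0427), array weights (0.00783) and Storey's q-value (0.0110). The others left out S5A replicate 1 (limma adjusted p = 0.0221), wild-type replicate 2 (0.0498) or S2A replicate 2 (0.0416). RRP40 changed by 0.46, 0.083 and 0.30, with a mean of 0.28 ± 0.19 (SD, n = 3; limma adjusted p = 0.137). It was called higher after scaling (limma adjusted p = 0.0274) and with Storey's q-value (0.0281).

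Compared directly, the log2 changes of RRP4, RRP43 and RRP6 were higher in S5A than in wild-type, so 3 of the 10 were called higher, where 4.13% of all features were. For RRP4 the S5A minus wild-type difference was 0.70 (SE 0.14, 95% interval 0.39 to 1.01; limma adjusted p = 0.0125). For RRP43 it was 0.67 (SE 0.15, 95% interval 0.34 to 0.999; limma adjusted p = 0.0183), and for RRP6 0.68 (SE 0.16, 95% interval 0.31 to 1.04; limma adjusted p = 0.0249). The 3 called genes thus comprise 1 cap gene, 1 ring gene and the nuclear exonuclease, and for each of them all S5A arrays lay above all wild-type arrays. The same separation held for RRP42, RRP46 and MTR3, so that 6 of 10 exosome transcripts showed it, against 19.1% of all features.

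The calls sit close to the threshold. RRP6 was no longer called with the replicate number as a block (limma adjusted p = 0.0260), after quantile normalization (0.0592), after scaling (0.0463) or with features measured on 2 or more arrays of each strain (0.0332), and kept its call under 5 of 18 alternative settings, RRP43 under 10 and RRP4 under 13. Leaving out S5A replicate 1, the array on which 9 of the 10 transcripts lay highest within S5A, took all 3 past the threshold (limma adjusted p = 0.0576 for RRP4, 0.0789 for RRP43 and 0.102 for RRP6), and so did leaving out wild-type replicate 2 (0.0341, 0.0473 and 0.0624), wild-type replicate 3 (0.0473, 0.0432 and 0.0808) or S5A replicate 3 (0.0418, 0.0427 and 0.0562). RRP43 and RRP6 were also not called without S5A replicate 2 (limma adjusted p = 0.0385 and 0.0354), S2A replicate 2 (0.0291 and 0.0363) or S2A replicate 3 (0.0267 and 0.0351), and RRP6 not without wild-type replicate 1 (0.02505).

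The other 7 exosome transcripts were not called different. MTR3 had the largest estimate of all, 0.72, with a wide interval (95% interval 0.15 to 1.28; limma adjusted p = 0.0850), and was called without S2A replicate 1 (0.0201). For SKI6 the difference was 0.51 (95% interval 0.041 to 0.97; limma adjusted p = 0.1296), for RRP46 0.39 (−0.016 to 0.80; 0.174) and for RRP42 0.33 (−0.080 to 0.73; 0.249). RRP42 was called with array weights (difference 0.49, limma adjusted p = 0.0217). The differences of RRP45 (0.16, 95% interval −0.16 to 0.47), CSL4 (0.071, −0.37 to 0.52) and RRP40 (−0.092, −0.58 to 0.40) were the smallest, and the sign of the RRP40 and CSL4 differences turned when the arrays were scaled to one spread. At an unadjusted p below 0.05 there were 5 exosome transcripts and 31.6% of all features. The difference was above 0 for 9 of the 10, against 51.1% of all features, and its median was 0.45, against 0.0094. In wild-type 9 of the 10 fell, whereas all features hold both reduced and raised transcripts. These all-feature values, and the 4.13% and 19.1% given above, are therefore not matched for the direction of the wild-type change. The plot of differences from wild-type sets the intervals of both mutants side by side.

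**Figure D2:**
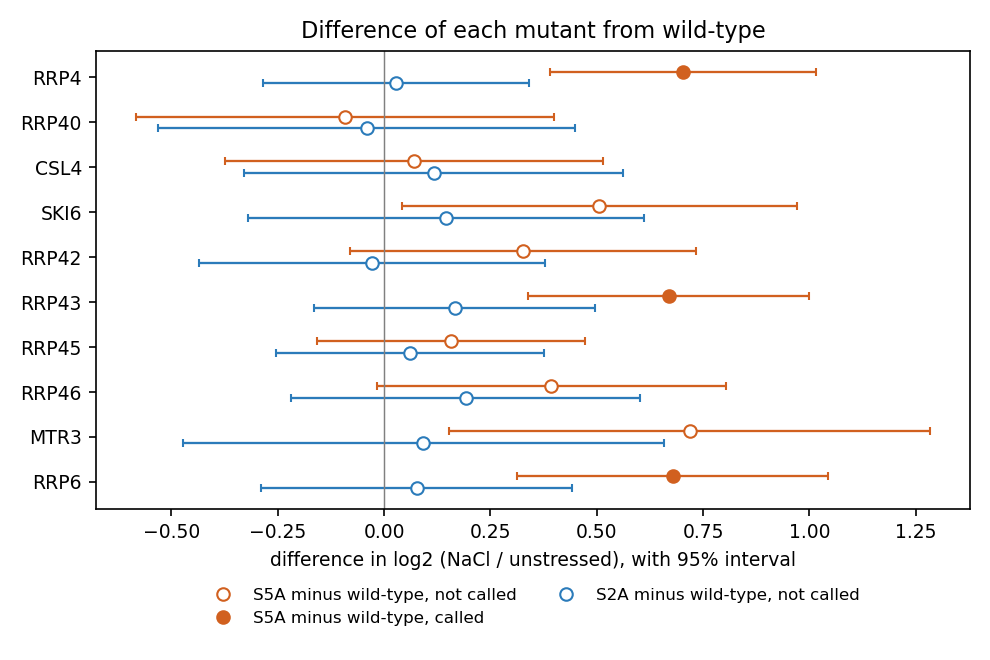
Difference of the S5A and S2A strains from wild-type in log2 (NaCl / unstressed) (horizontal axis) for each exosome subunit gene, with 95% intervals from limma. Filled points are differences called at an adjusted p at or below 0.025, which are RRP4, RRP43 and RRP6 in S5A. The intervals of all 10 S2A differences include 0.

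The S5A response was smaller than that of wild-type over the whole array, with a slope of S5A on wild-type means of 0.725 across the 5645 features (0.939 for S2A). Beside that slope, the ratio of the S5A to the wild-type mean was −0.0529 for RRP43, 0.0868 for RRP4, 0.259 for SKI6, 0.356 for MTR3, 0.453 for RRP6 and 0.602 for RRP46. RRP42 (0.720), RRP45 (0.736), RRP40 (0.754) and CSL4 (0.830) lay near or above the slope of all features. The subunits of the ring therefore ranged from RRP45 and RRP42, whose ratios lay near the slope of all features, to RRP43, whose S5A mean was not below 0. These ratios carry no test. Once arrays were scaled to one spread, S5A exceeded wild-type by 0.65 for RRP4 (limma adjusted p = 0.0153) and 0.64 for RRP43 (0.0198), both called, and 0.52 for RRP6 (0.0463), not called. After quantile normalization the difference was 0.64 for RRP4 (limma adjusted p = 0.0177), 0.63 for RRP43 (0.0225) and 0.48 for RRP6 (0.0592), again with RRP6 not called.

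S5A also differed from S2A for RRP4, which was called higher by 0.67 (SE 0.14, 95% interval 0.36 to 0.99; limma adjusted p = 0.0227), 1 of 10 where 1.51% of all features were. The call held under 7 of 18 alternative settings. It was lost without S2A replicates 1, 2 or 3 (limma adjusted p = 0.0606, 0.0473 and 0.0620), S5A replicates 1, 2 or 3 (0.0924, 0.0405 and 0.0691) or wild-type replicate 3 (0.0378). Quantile normalization (limma adjusted p = 0.0264) and scaling (0.0265) also removed the call. So did features measured on 2 or more arrays of each strain (0.0328) and only the arrays compared (0.0305). All S5A arrays lay above all S2A arrays for RRP4, SKI6, RRP43 and RRP6, 4 of 10, as they did for 18.7% of all features. The S5A minus S2A difference was 0.60 for RRP6 (limma adjusted p = 0.0508) and 0.50 for RRP43 (0.0642), and neither was called. This comparison shares the S5A arrays with the one against wild-type.

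Much of what the exosome does depends on partner proteins, whose genes were taken as lists. The nuclear cofactors of the exosome were listed together with the core subunit gene DIS3. Genes of this list fell in wild-type cells, 6 of 6 called lower with a median of −1.56. UTP18 (−2.68 ± 0.089, SD, n = 3) and MTR4 (−2.40 ± 0.30) fell the most. Mtr4 is the helicase that feeds RNA to the nuclear exosome, and Utp18 is a processome protein that can recruit it. MPP6 (−1.10 ± 0.69), an exosome-associated RNA-binding protein, and DIS3 (−0.68 ± 0.25), the catalytic subunit of the core, fell the least. DIS3 thus fell about as much as SKI6 and RRP43, and its S5A mean was −0.50 ± 0.20 (SD, n = 3). In S5A the median of this list, DIS3 included, was −0.51, and 2 of 6 were called different from wild-type, both higher. These were UTP18 (difference 1.23, limma adjusted p = 0.00851) and NOP53 (1.31, 0.00590), which encodes a ribosome assembly factor that can recruit Mtr4 and is named after its values were seen.

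TRAMP, a nuclear complex that adds short poly(A) tails to exosome substrates, contains a poly(A) polymerase (Pap2, also called Trf4, or Trf5) and a zinc-knuckle protein (Air1 or Air2). AIR1 (−2.31 ± 0.25, SD, n = 3), TRF5 (−2.01 ± 0.32) and PAP2 (−0.87 ± 0.18) fell in wild-type, whereas AIR2 rose (0.39 ± 0.23, limma adjusted p = 0.0308). AIR1 was the only one of the 4 called different in S5A, where its mean was −1.26. The SKI complex and Ski7, which serve the cytoplasmic exosome, did not share a direction. SKI2 (−0.42 ± 0.11) and SKI3 (−0.37 ± 0.024) fell, SKI8 (0.28 ± 0.17) and SKI7 (0.58 ± 0.096) rose, and 0 of the 4 were called different in S5A.

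The Nrd1-Nab3-Sen1 complex ends transcription of short non-coding RNAs and hands them to the nuclear exosome. NAB3 (−0.56 ± 0.28, SD, n = 3) and SEN1 (−0.54 ± 0.045) fell in wild-type while NRD1 rose (0.83 ± 0.23). NRD1 fell in S5A (−0.54 ± 0.28), and its difference of −1.38 (limma adjusted p = 0.00555) ran opposite to that of RRP4, RRP43 and RRP6.

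Among enzymes that degrade RNA without the exosome, the 5′-to-3′ exonuclease genes XRN1 (−0.77 ± 0.079, SD, n = 3) and RAT1 (−1.13 ± 0.36) fell in wild-type, and RAI1, the partner of Rat1, changed by −0.28 ± 0.027 (limma adjusted p = 0.0517). Their median was −0.77 in wild-type and −0.72 in S5A. Of 5 other 3′-to-5′ exonuclease genes, REX4 (−2.75 ± 0.16), REX2 (−0.90 ± 0.16) and RNH70 (−0.72 ± 0.27) fell, REX3 rose (0.85 ± 0.10) and NGL2 changed by −0.12 ± 0.15 (limma adjusted p = 0.314). REX4 was the one called different in S5A (difference 1.15). Of 12 decapping and deadenylation genes 6 fell and 1 rose in wild-type, with a median of −0.33. PAT1 (−1.02 ± 0.11) and CCR4 (−0.94 ± 0.097) were lowest, PAN3 (0.57 ± 0.062) and DCP2 (0.18 ± 0.31, limma adjusted p = 0.202) highest, and 0 of the 12 were called different in S5A.

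The fall of the exosome genes was shallower than that of genes with related names that make ribosomes. RRP genes that do not encode exosome subunits were called lower in 9 of 9 cases with a value on every array (11 listed), with a median of −1.95 in wild-type and −0.94 in S5A. RRP12 (−3.38 ± 0.31, SD, n = 3) and RRP5 (−2.95 ± 0.30) were lowest, and RRP3 (−1.07 ± 0.18) and RRP7 (−0.41 ± 0.16) highest. In S5A 3 of the 9 were called higher than wild-type, RRP12 (difference 1.19), RRP7 (0.72) and RRP14 (1.33), the last named after its values were seen. RRP7 was called raised by salt in S5A (0.31 ± 0.080, SD, n = 3; limma adjusted p = 0.0215). That call was lost when any S5A array was left out. UTP genes, which encode the small subunit processome, were called lower in 16 of 16 (18 listed), with a median of −2.28 in wild-type and −1.32 in S5A, and 13 of 16 were called higher in S5A than in wild-type. UTP4 (−3.21 ± 0.21) and UTP6 (−2.83 ± 0.33) were lowest, and UTP22 (−1.09 ± 0.17) and UTP30 (−1.06 ± 0.20) highest. UTP18 is in both the UTP and the cofactor list. The plot of gene lists shows the exosome subunits between the UTP genes and the decapping genes in wild-type. In S5A the median of the exosome subunits (−0.37) was close to that of the decapping genes (−0.42).

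**Figure D3:**
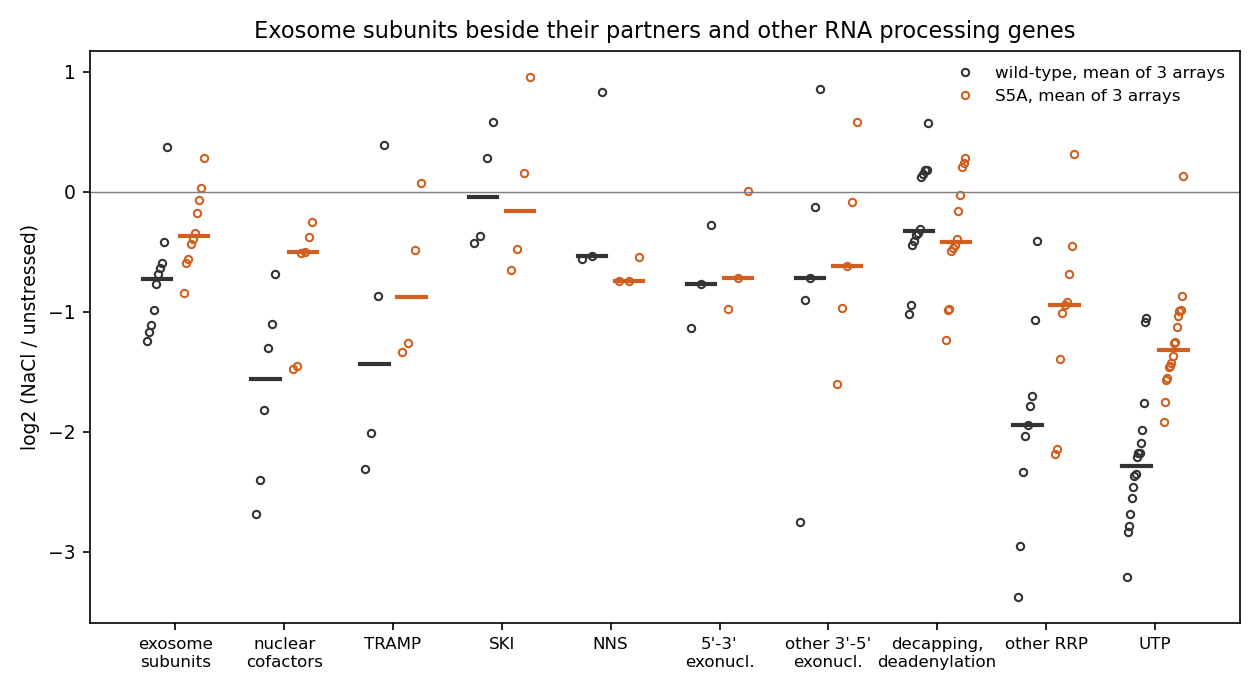
Log2 ratio of salt-treated to unstressed transcript level (vertical axis) in wild-type and S5A cells for the exosome subunits and lists of partner or other RNA processing genes. Circles are genes (mean of 3 arrays) and thick bars the median of a list. In wild-type the median of the exosome subunits (−0.73) lay between those of UTP genes (−2.28) and of decapping and deadenylation genes (−0.33), and in S5A it was −0.37, beside −1.32 and −0.42.

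The features whose values lay nearest to the exosome median over all 9 arrays, among those that are not exosome subunits, were RKM3, SFM1, PAP2, MDJ2 and SHE1. Their root mean squared distance from that median was 0.08999, 0.114, 0.114, 0.119 and 0.132 log2 units, and they were found by this distance alone. RKM3 changed by −0.72 in wild-type, −0.61 in S2A and −0.32 in S5A. PAP2, the poly(A) polymerase of TRAMP, changed by −0.87, −0.69 and −0.48. Measured in the same way against the median of their 9 fellow subunits, RRP4 (0.244) and RRP45 (0.245) lay nearest and RRP42 (0.602) and RRP40 (1.03) farthest.

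Each exosome gene was also set beside the annotated gene on the side of its start (RefSeq, assembly R64), since neighbouring yeast genes can share the DNA between them. None of the 10 overlapped another annotated gene. For 5 of them the neighbour is divergent, sharing the intergenic region. RRP40, the subunit with a mean above 0, lies beside RIB4 (riboflavin synthesis), which rose by 0.88 ± 0.11 in wild-type (SD, n = 3) and 1.02 ± 0.30 in S5A. RRP4 lies beside TRM5, a tRNA methyltransferase gene, which fell by 1.65 ± 0.27 on the log2 scale in wild-type and fell by 0.81 ± 0.30 in S5A (difference 0.84, limma adjusted p = 0.0180). RRP46 lies beside TPC1, a mitochondrial carrier gene, which changed by −0.94 ± 0.10. These 3 pairs had the same sign in wild-type.

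The remaining divergent pairs had opposite signs. SKI6 lies beside XKS1 (xylulokinase), which rose by 2.004 ± 0.11 in wild-type (SD, n = 3) and 1.16 ± 0.14 in S5A (difference −0.84, limma adjusted p = 0.00946), and RRP43 beside RBK1 (ribokinase), which rose by 0.50 ± 0.098. Where the neighbour lies on the same strand, signs were likewise mixed. MTR3 follows NSR1, a nucleolar protein gene whose mean of −4.49 ± 0.23 was the lowest of all features in wild-type (S5A minus wild-type difference 1.06, limma adjusted p = 0.0180, and −0.11, not called, after quantile normalization), RRP45 follows RNH202 (−0.70 ± 0.066) and CSL4 follows BNI4 (−0.28 ± 0.094). RRP42 follows TMA17, which rose by 2.99 ± 0.34, and RRP6 follows PHO80, which rose by 0.34 ± 0.075. The plot of neighbouring genes shows the 10 pairs.

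**Figure D4:**
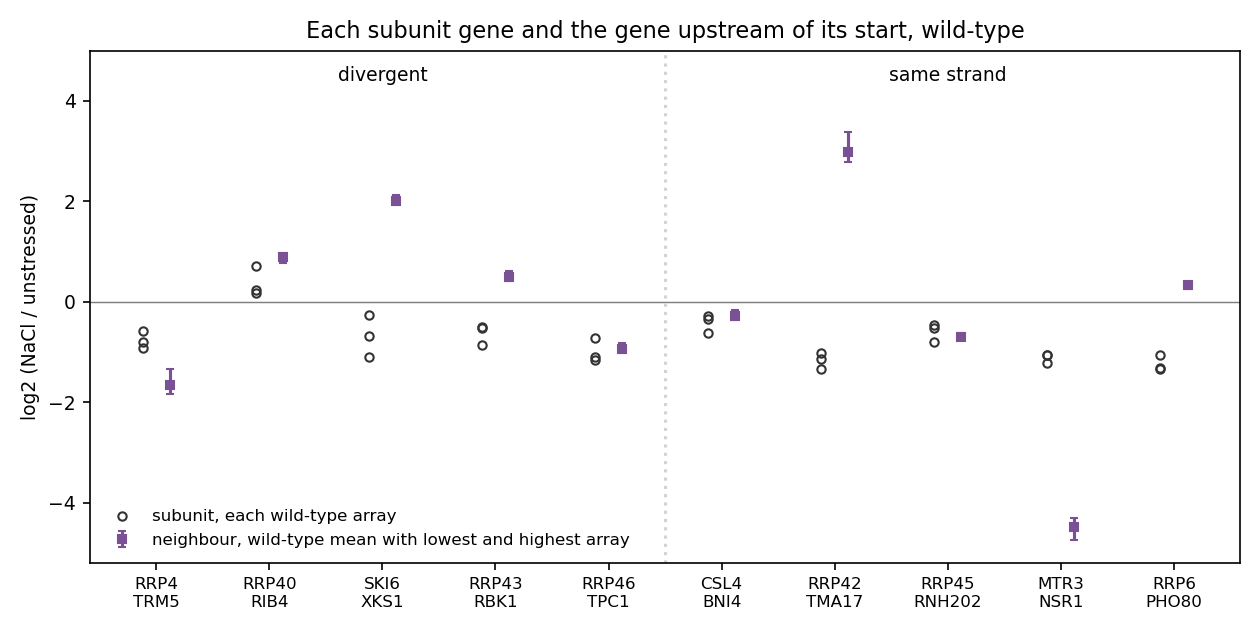
Log2 ratio of salt-treated to unstressed transcript level in wild-type cells (vertical axis) for each exosome gene and its upstream neighbour. Circles are the 3 arrays of the exosome gene, squares the neighbour's mean with its lowest and highest array. Neighbours range from −4.49 (NSR1) to 2.99 (TMA17), while 9 of the 10 exosome genes have means between −0.42 and −1.24.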

How the data were processed

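Total RNA from salt-treated and unstressed cultures was converted to cDNA, labelled with 2 dyes and hybridised to whole-genome tiled arrays. The deposited values are log2 ratios that the authors normalized with procedures described elsewhere, summarised to 6868 features. The genome build of the array design was not given in the sources used here. Between 156 and 1163 features lacked a value on an array. Single-channel intensities were not used here, so depth is not defined. Precision is limited by having 3 arrays per strain.

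The 5645 features measured on every array were fitted with limma 3.58.1 in R 4.3.3 (lmFit, contrasts, eBayes; 1 mean per strain, no block). All columns matched a sample. Symbols came from RefSeq locus tags (5984 features matched). Simulated data with the observed spread of each feature were used to test the pipeline: for S5A minus wild-type over 5645 features, 63% of 200 features shifted by 1 log2 unit were called, and 2.58% of calls were false (20 runs). The simulation drew features independently, without array-wide effects, pairing or the narrower S5A spread. Its shift was larger than the differences called for exosome genes, so these rates do not give the power or error of those calls.

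The exosome genes and the gene lists were chosen with earlier results of these data known. The text names all exosome genes, every gene of lists of up to 5, the 2 highest and 2 lowest by wild-type change of longer lists, the gene upstream of each exosome gene, and the 5 features nearest to the exosome median. Each list is described by counts and median, with no list test. Results for the exosome genes were recomputed with arrays centred on their medians, quantile normalized or scaled to one median absolute deviation, with features measured on 2 or more arrays of each strain (6254), and with a replicate block, array weights, robust eBayes, Storey's q-value (lambda 0.5), exchanged thresholds, only the arrays compared, and each array left out. The same settings were applied to the other named genes, a step chosen after seeing the data. A planned promoter motif search was not run.

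The study describes mutants and wild-type as paired. Deviations of same-numbered arrays from their strain means correlated, across features, at 0.231, 0.177 and 0.166 for S5A and wild-type and at 0.149, 0.388 and 0.292 for S2A and wild-type, so replicate numbers were taken to pair these strains. The main fit, which gave the calls in the Results, did not use this pairing. Only the alternative fit with a replicate block did. With that block 2 of the 10 exosome transcripts were called between S5A and wild-type, and RRP6 was not (limma adjusted p = 0.0260). For S5A and S2A they were 0.129, 0.121 and 0.0616, and the numbers were not taken as pairs.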

Additional observations from a re-analysis of the deposited data

Results flagged for a closer look

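The following differences between strains passed limma's test of the difference itself. The mean log2 change of RRP4 was −0.77 in wild-type, −0.74 in S2A and −0.067 in S5A. It was thus higher in S5A than in wild-type by 0.70 and than in S2A by 0.67, a smaller fall. For RRP43 the mean was −0.64 in wild-type and 0.034 in S5A, higher by 0.67. For RRP6 it was −1.24 in wild-type and −0.56 in S5A, higher by 0.68 and again a smaller fall. For each of these comparisons all 3 S5A arrays lay above all 3 arrays of the other strain. Over all features this was so for 19.1% against wild-type and 18.7% against S2A. The comparisons were picked by a test on the same arrays, so this separation is not separate evidence. The standard deviation over features was also smaller on the S5A arrays (0.886 to 0.916) than on the wild-type arrays (1.07 to 1.22). After scaling of the arrays to one spread the differences from wild-type were 0.65 for RRP4 and 0.64 for RRP43, both called. That of RRP6 was 0.52 (limma adjusted p = 0.0463), not called. The RRP4 difference from S2A was 0.64 after scaling (limma adjusted p = 0.0265), not called, and its call held under 7 of 18 alternative settings.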

How the results depend on the processing

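Of the 9 exosome transcripts called lower in wild-type, 8 stayed called under all 17 alternatives (CSL4 was the exception), as did 7 of 8 in S2A (SKI6 was the exception) and 4 of 4 in S5A. In S5A 7 were called after scaling and 7 with Storey's q-value, RRP40 among them as higher. The 3 calls of S5A against wild-type became 0 with only the arrays compared, and ranged from 0 to 4 with 1 array left out (4 without S2A replicate 1, where MTR3 joined). The 1 call of S5A against S2A became 0 after quantile normalization, 0 after scaling, 0 with features measured on 2 or more arrays of each strain and 0 with only the arrays compared, and ranged from 0 to 1 with 1 array left out. The fits of only the arrays compared and those with an array left out hold fewer arrays. The cause of the other changes was not tested.

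Among the changes in each strain and the differences of S5A from wild-type, signs turned for 4 values, each under 0.1 in size. The RRP4 change in S5A ranged from −0.12 to 0.0096 with 1 array left out. The RRP43 change in S5A became −0.0079 with array weights and ranged from −0.050 to 0.081. The S5A minus wild-type difference of RRP40 became 0.0052 after scaling and 0.014 with array weights and ranged from −0.19 to 0.078. That of CSL4 became −0.011 after quantile normalization, −0.0034 after scaling and −0.074 with array weights and ranged from −0.093 to 0.21.

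With the replicate block, which pairs strains by number, RRP4 and RRP43 stayed called between S5A and wild-type, RRP6 did not (adjusted p = 0.0260), and CSL4 became called lower in S2A (0.0236) and S5A (0.0142). No other call of an exosome transcript in a strain or of S5A against wild-type changed. Over all features the 449 calls of S5A against wild-type became 762 with the block, 1284 with array weights, 789 with Storey's q-value, 182 after quantile normalization, 282 after scaling and 298 with only the arrays compared, and ranged from 17 (without S5A replicate 1) to 460 with 1 array left out. Of S5A against S2A, 187 features were called, and 70 after quantile normalization, 53 after scaling, 88 with features measured on 2 or more arrays of each strain, 315 with the block, 423 with array weights, 414 with Storey's q-value and 61 with only the arrays compared, with a range from 0 to 275 with 1 array left out.

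For 56 other named genes the same settings, applied after seeing the data, left 48 of 53 wild-type responses called throughout; AIR2, SKI8, MPP6, BNI4 and PHO80 lost theirs under 1 to 3 settings, each without wild-type replicate 2 among them. Of 14 S5A minus wild-type calls, NRD1 alone stayed called throughout. TRM5 and NSR1 kept theirs under 7 of 18, UTP4 under 9, RRP12 under 11, RRP7 and XKS1 under 12 and AIR1 and UTP18 under 14. RRP14 and UTP6 kept theirs under 15, REX4 under 16 and NOP53 and UTP30 under 17. Quantile normalization reduced the differences of AIR1 to 0.43, UTP18 to 0.47, REX4 to 0.31 and RRP12 to 0.18, and turned that of NSR1 to −0.11.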
